A study of Nothobranchius furzeri with 20 samples.

Results

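Within a set of 5 libraries of killifish skin, the 200 genes described here varied little from library to library. Their evenness between sets depended on how libraries were scaled to each other. The genes were chosen from a table of 26739 because their level in the skin varied least over 20 libraries of young and older, exercised and unexercised fish. Levels were read as CPM (a gene's reads per 1000000 counted reads of its library) on the scale log2(CPM + 0.5). Genes with a mean of 10 to under 1000 CPM numbered 9583. Of these, 3367 had ranges that overlapped in each of the 6 pairs of the 4 sets of 5 libraries described next, and are called eligible genes here. The 200 eligible genes with the smallest standard deviation (SD) over all 20 libraries are the members, 5.94% of the eligible genes and 0.748% of the table. All 20 libraries chose the members, so their small spread and the overlap of their ranges are a description and not a finding.

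The fish were male turquoise killifish (Nothobranchius furzeri), an annual fish with a very short life used in ageing research, of the strain MZM-04/10p. There were 5 libraries of skin from 9-week fish with no perturbation, 5 from 9-week fish kept in a swim tunnel (a flow chamber that makes fish keep swimming) and 10 from 27-week fish exercised in the same way. The titles of the 27-week libraries fall into 2 separate runs of consecutive numbers, here replicates 1 to 5 and replicates 6 to 10, which the labels do not tell apart and which differ in a large share of all genes. Unexercised fish of 27 weeks are not among the labelled groups, and each group or run has title numbers of its own, so a condition and whatever else differs between these numbers cannot be told apart. Separate animals are not stated in the labels, so a p-value here measures spread between samples that may be technical. Where single fish are spoken of below, the sample behind a library is meant.

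Fish skin is a layered tissue of epidermal cells, mucous cells and a dermis with fibroblasts, scales and pigment cells, and a library holds RNA of them all. A low spread in a whole tissue can come from a steady level in every cell type or from changes that cancel, and in bulk tissue fewer cells of a type and less RNA per cell cannot be told apart. Genes of even level are used as references in expression studies, where other genes are measured relative to them. The choice is relative too, since a read count has a meaning only after libraries have been scaled to each other. The files pair no identifier with a gene name, and 0 of 26739 identifiers matched the reference gene table, so no member is given a name or function and the tissue could not be checked against marker genes.

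Libraries held 20597690 to 38619614 counted reads, a 1.87-fold span. The members took 1.72% to 2.02% of the counts of a library. The most abundant genes, of 1000 CPM or more, took 45.1% to 51.5% of the counts in replicates 6 to 10 of 27 weeks, 38.1% to 45.6% in replicates 1 to 5, 39.0% to 49.7% in exercised and 38.8% to 46.3% in unexercised fish of 9 weeks. The share of the most abundant genes was therefore highest, by its median, in replicates 6 to 10 (48.3%).

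The SD of the members on the log2(CPM + 0.5) scale ran from 0.0822 to 0.187, with a median of 0.165, against a median of 0.365 in the 3167 other eligible genes. The highest library of a member exceeded its lowest by 1.21-fold to 1.82-fold, with a median of 1.54-fold. It stayed under 1.5-fold in 71 members. In the other eligible genes the median was 2.7-fold. Only 2 members had an SD under 0.1. The list thus has a short lower tail and a dense upper limit, with 54 members under 0.15 and the rest between that value and the limit.

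Genes on both sides of the limit had nearly the same spread. Just inside it lay Nfu_g_1_018294 (SD 0.1873) and Nfu_g_1_001937 (SD 0.1874), and just outside it Nfu_g_1_022223 (SD 0.1875) and Nfu_g_1_009212 (SD 0.1876). Their means were 34.4, 96.3, 34.2 and 40.9 CPM. Of all 9583 genes in the level window, 305 had an SD at or below the limit, and 105 of these were left out because at least 1 pair of sets did not overlap.

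Read counting accounted for a small part of the spread. The SD that counting alone would give was 0.00844 to 0.0826 in the members, with a median of 0.0410, and made up a median of 6.62% of their variance. It was above 10% in 65 members and above 25% in 4. The remaining spread lies between libraries. For the other eligible genes the median counting part was 1.77%. The biological coefficient of variation that edgeR estimated within the 4 sets had a median of 0.127 in the members, 0.169 over all genes of the level window and 0.217 in the other eligible genes.

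**Figure D1:**
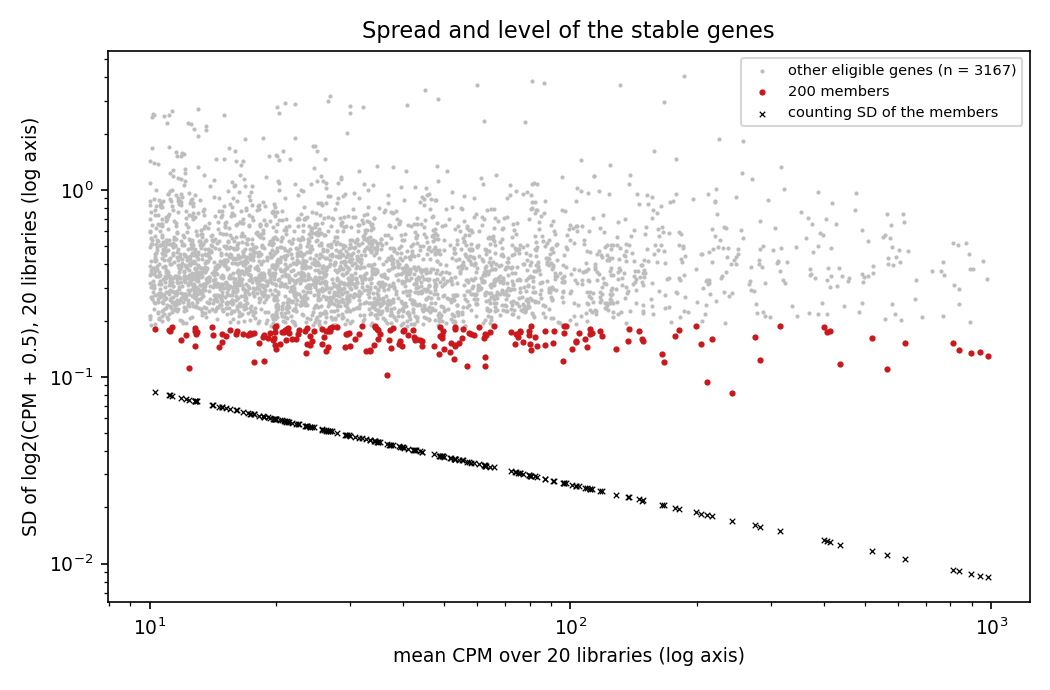
SD of log2(CPM + 0.5) over 20 libraries (vertical, log axis) against mean CPM (horizontal, log axis) for the members (red) and the 3167 other eligible genes (grey), with the SD expected from counting alone for each member (crosses). Taken over all levels the members lie between 0.0822 and 0.187, above their counting SD.

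Members were found at every level of the window. With a mean of 10 to under 30 CPM there were 75 members, 4.25% of the eligible genes of that level. There were 84 members at 30 to under 100 CPM (7.21%), 28 at 100 to under 300 CPM (8.59%) and 13 at 300 to under 1000 CPM (11.8%). Members were thus a growing share of the eligible genes with level, and the median mean level was 41.7 CPM in the members and 28.0 CPM in the other eligible genes. The rule did not use gene length, which was read from the ratio of counts to the deposited RPKM values (reads divided by gene length and by a library total). The median length was 3.20 kb in the members, from 0.213 to 13.6 kb, and 3.61 kb in the other eligible genes. Genes under 1 kb made up 14.5% of the members and 9.74% of the eligible genes, and genes of 8 kb or more 5.50% and 11.8%. Levels per length, from CPM over length, ranged in the members from 1.51 to 3946 RPKM with a median of 13.4 RPKM, against 8.86 RPKM in the other eligible genes.

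The most even member was Nfu_g_1_011501, 5.51 kb long, with 5377 to 8815 reads per library and an SD of 0.0822. It had 223, 243, 218, 245 and 246 CPM in unexercised fish of 9 weeks and 262, 233, 236, 256 and 249 CPM in exercised fish of that age. At 27 weeks it had 261, 259, 238, 228 and 216 CPM in replicates 1 to 5 and 257, 249, 243, 242 and 246 CPM in replicates 6 to 10. All 4 sets overlapped, and replicates 6 to 10 lay inside the range of replicates 1 to 5. The next was Nfu_g_1_015912, 1.27 kb long, with an SD of 0.0932 and ranges of 186 to 226 CPM in unexercised and 199.4 to 217.9 CPM in exercised fish of 9 weeks. It had 185 to 236 CPM at 27 weeks, with a median of 210.1 CPM.

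Fish of a set differed less in the members than in the typical gene of the level window, in each of the 4 sets. The rule took the smallest SD over these same libraries, which includes the spread within sets, so this is a description. The median SD between the 5 fish of a set was 0.125 in unexercised and 0.135 in exercised fish of 9 weeks, and 0.154 in replicates 1 to 5 and 0.1496 in replicates 6 to 10 of 27 weeks. Over all 9583 genes of the window it was 0.203, 0.212, 0.237 and 0.227 in the same order. In the other eligible genes it was 0.259, 0.285, 0.351 and 0.334, and in the 6216 genes that were not eligible 0.185, 0.189, 0.201 and 0.193. Wide ranges overlap more easily, so the eligible genes are a wide comparison for spread within a set. The unexercised set was the widest for 26 members, the exercised 9-week set for 47, replicates 1 to 5 for 70 and replicates 6 to 10 for 57. Differences between the 4 sets made up a median of 25.4% of the variance of a member and 28.6% of that of the other eligible genes. The remaining part lay between fish of a set. The overlap that the rule requires limits the part between sets. Its median was 58.9% over all genes of the window and 73.2% in those not eligible.

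Correlation between members over the libraries was weak. Pearson's r over the 20 libraries had a median of 0.145 over the 19900 pairs of members and 0.139 over the pairs of all eligible genes, members included. It exceeded 0.5 in 14.8% and 13.8% of pairs and lay below -0.5 in 1.49% and 3.12%. These pairs share libraries and their scaling, and the values are a description. The first principal component held 29.1% of the variance of the members and 33.2% of that of all eligible genes.

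Single libraries stood out. Replicate 7 of 27 weeks had the lowest value of 52 members and the highest of 6, and its median member lay at -0.13 (log2, relative to each gene's own mean). Replicate 4 of 27 weeks had the lowest value of 23 members and the highest of 17. Replicate 1 of 27 weeks, the library of the fewest reads, had the lowest value of 1 member and the highest of 29. By library the median member deviated between -0.13 and 0.11, and 4 of the 5 replicates 6 to 10 lay below 0. The members shared this with genes at large. Over all genes of the level window the median deviation was -0.33 in replicate 7. It ran from -0.33 to -0.08 in replicates 6 to 10.

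The list was then tied to the way libraries are scaled to each other. CPM divides by the library total, to which the most abundant genes add much. TMM, edgeR's trimmed mean of M-values, sets libraries so that most genes do not differ between them. The mean TMM factor was 1.07 ± 0.0833 (SD, n = 5) in replicates 1 to 5 of 27 weeks and 0.899 ± 0.0562 (SD, n = 5) in replicates 6 to 10. The 9-week sets had 1.01 ± 0.0861 with exercise and 1.04 ± 0.0795 without (SD, n = 5 each). Changing from TMM to totals moved the median log2 fold change of all genes tested, for replicates 6 to 10 over 1 to 5, by -0.29.

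With TMM-scaled values the median member lay above its own mean in all 5 of replicates 6 to 10, at 0.05 to 0.16 (log2), and below it in all 5 of replicates 1 to 5, at -0.19 to -0.01. With library totals the same libraries gave -0.13 to 0.01 and -0.09 to 0.09. Thus the 2 runs overlapped with totals and did not with TMM. The 9-week sets ran from -0.11 to 0.11 (exercised) and from -0.18 to 0.04 (unexercised) with TMM. On the TMM scale 147 members still overlapped in every pair of sets, as did 3489 genes of the level window on that scale. With totals it was 3367 genes of the window, and every member by the rule. The median SD of the members was 0.169 with TMM. The same rule on TMM-scaled values chose another list, with an SD limit of 0.145, which shared 49 of its 200 genes with the members. With DESeq2's size factors 44 were shared and with upper-quartile scaling 32.

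**Figure D2:**
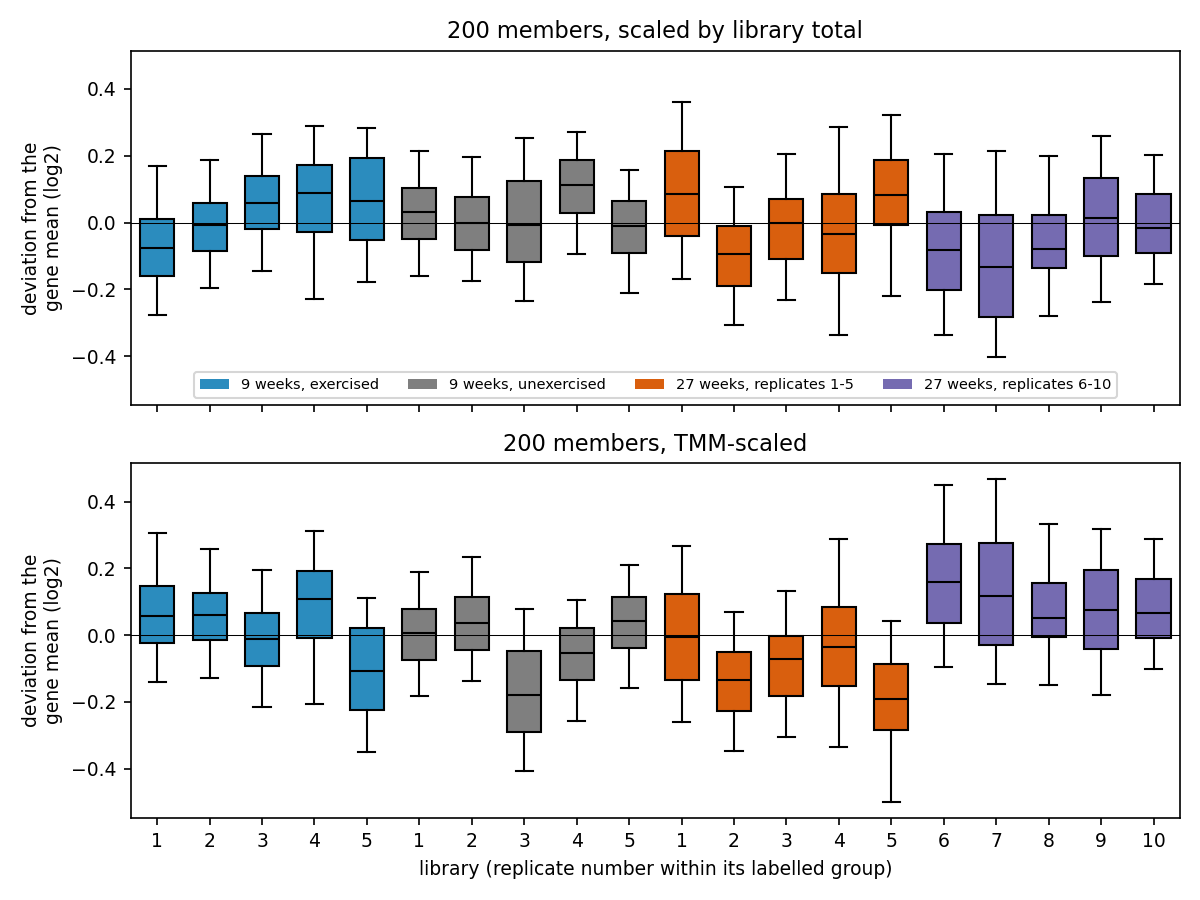
Deviation of the 200 members from their own means (log2) in each of the 20 libraries, with library totals (top) and TMM (bottom); boxes span the quartiles of the members with the median as a line, and whiskers run from the lowest to the highest 5%. With TMM the medians of replicates 6 to 10 of 27 weeks lie between 0.05 and 0.16 and those of replicates 1 to 5 between -0.19 and -0.01.

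Each contrast was fitted over the whole table with edgeR's quasi-likelihood test and TMM, and a gene was called at an adjusted p under 0.05. The rule had used these libraries, so the counts of members called are a description beside the share of all genes called, and nothing is read from their distance.

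For exercise at 9 weeks 0 of 200 members were called by edgeR, beside 0.0108% of all genes tested. An unadjusted p under 0.05 was reached by 4 members and by 2739 of the 18520 genes tested. By limma-voom 0 members and 0.0108% of all genes were called. DESeq2 called 2.19% of all genes and 2 members, Nfu_g_1_023220 (adjusted p = 0.0191) and Nfu_g_1_020935 (adjusted p = 0.0331), both higher with exercise; the second was chosen after its values were seen. Nfu_g_1_023220 had 18.6, 19.5, 18.7, 20.1 and 17.6 CPM without exercise and 19.2, 20.6, 23.5, 24.6 and 25.3 CPM with it. The groups overlapped, and 4 of 5 exercised fish lay above every unexercised fish. Its edgeR log2 fold change was 0.31 (SE 0.0744, adjusted p = 0.183), the largest positive one among the members. The largest negative one was that of Nfu_g_1_020072, at -0.18 (SE 0.102, edgeR adjusted p = 0.429). It had 11.6 to 15.7 CPM without exercise and 11.4 to 13.0 CPM with it. Over all members the median absolute log2 fold change was 0.0662, against 0.172 for all genes tested.

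For age, 27 weeks against 9 weeks in exercised fish, 0 of 200 members were called by edgeR, beside 24.5% of all genes tested. An unadjusted p under 0.05 was reached by 5 members and by 7365 of the 18801 genes tested. All 10 older fish carry the exercise label, but if the 2 runs differ in a condition that the labels do not give, such as exercise, this contrast and its share of calls mix that condition with age. The 4609 calls over all genes fell to 2467 without exercised replicate 4 of 9 weeks, to 2747 without replicate 5 and to 2813 without replicate 3. They lay between 3620 and 5333 with any one fish of 27 weeks left out. Without replicate 7 of 27 weeks 1 member, Nfu_g_1_012428, was called (edgeR adjusted p = 0.0456), beside 27.3% of all genes. Limma-voom called 0 members and 23.5% of all genes. DESeq2 called 25.8% of all genes and 2 members, Nfu_g_1_013705 (adjusted p = 0.0366) and Nfu_g_1_008487 (adjusted p = 0.0212), both lower at 27 weeks and chosen after their values were seen. Nfu_g_1_012428 had the largest negative edgeR log2 fold change, -0.25 (SE 0.105, adjusted p = 0.0870). It had 14.99, 18.1, 17.0, 20.9 and 18.7 CPM in exercised fish of 9 weeks and 12.8 to 16.1 CPM, with a median of 14.9 CPM, in those of 27 weeks. Only replicate 1 of the younger fish lay within the range of the older ones. Nfu_g_1_011625 had the largest positive one, 0.24 (SE 0.118, edgeR adjusted p = 0.142), with 36.8 to 51.3 CPM at 9 weeks and 44.9 to 60.2 CPM at 27 weeks.

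The 2 runs of 27 weeks were also set against the exercised 9-week fish one at a time. The members' median log2 fold change had opposite signs in these 2 fits with TMM and not with totals. Relative to the median of all genes tested, it was -0.09 for replicates 1 to 5 and 0.08 for replicates 6 to 10 with TMM. With totals these were -0.09 and 0.09, since a difference of medians changes little with scaling. Replicates 1 to 5 alone differed from exercised 9-week fish in 27 members, all 27 lower at 27 weeks, where 50.3% of all genes tested were called and 24.5% called lower. Replicates 6 to 10 alone differed in 2 members, Nfu_g_1_011625 (log2 fold change 0.42, SE 0.0981, edgeR adjusted p = 0.0189) and Nfu_g_1_019978 (0.34, SE 0.106, adjusted p = 0.0497), both higher, where 16.1% of all genes were called; the second was chosen after its values were seen. These fits share the 9-week libraries. The median log2 fold change of the members was -0.11 in the first fit and 0.08 in the second. With library totals in place of TMM, 3 members were called in the first fit (46.7% of all genes) and 1 in the second (18.8% of all genes), and the medians were -0.01 and -0.08.

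Between the runs the members lay mostly on the same side with TMM. The rule had held them even with library totals, and changing from TMM to totals moved the median of all genes tested by -0.29. How far the rule and this move set a shared direction with TMM was not tested, so the direction is a description. Of 200 members 70 were called, all 70 higher in replicates 6 to 10, while 41.6% of all genes tested were called, 20.3% higher in replicates 6 to 10. The log2 fold change was above 0 in 193 members, with a median of 0.23, and reached 0.58. With library totals 5 members were called, 1 higher and 4 lower (41.0% of all genes were called), and 76 members lay above 0. Both scalings called 1 member in common. Of all calls over all genes, 48.9% were higher with TMM and 21.9% with totals. Relative to the median of all genes tested, the members' median log2 fold change was 0.18 higher with either scaling. A difference of medians changes little with scaling by construction, so this is no check of the scaling. With totals the medians were -0.06 in the members, which the rule held even on that scale, and -0.24 in all genes tested. The value is a description. Without replicate 5 of 27 weeks 36 members were called with TMM (37.1% of all genes), and without replicate 2 there were 37 (37.5% of all genes).

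**Figure D3:**
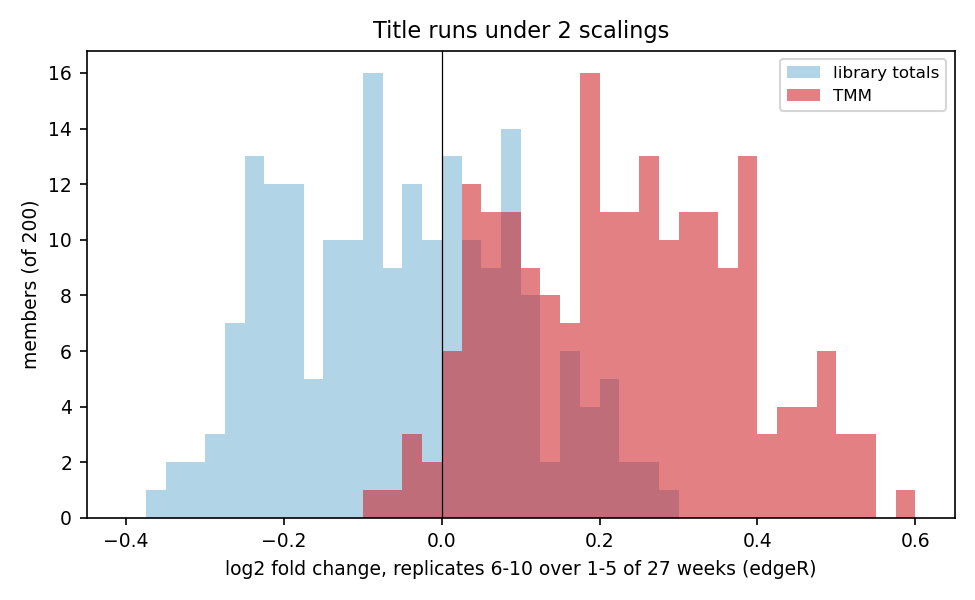
Histogram of the edgeR log2 fold change of the 200 members between the 27-week runs (replicates 6 to 10 over replicates 1 to 5) with library totals (blue) and with TMM (red). The median moves from -0.06 to 0.23, and 193 members lie above 0 with TMM.

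Nfu_g_1_006347, a short gene of 0.294 kb, had the largest positive difference. At 27 weeks it had 769, 713, 677, 705 and 797 CPM in replicates 1 to 5 and 925, 777, 954, 959 and 882 CPM in replicates 6 to 10. It had 868, 787, 762, 852 and 863 CPM in unexercised and 689, 797, 815, 891 and 741 CPM in exercised fish of 9 weeks. The runs overlapped through replicate 7 alone, and on the TMM scale, with 643 to 721 and 929 to 1096 CPM, they did not. Its log2 fold change was 0.58 (SE 0.0908, edgeR adjusted p = 0.000530) with TMM and 0.30 (SE 0.104, adjusted p = 0.0404) with totals. At the other end, Nfu_g_1_007588 had 98.2, 80.0, 91.1, 102.9 and 83.1 CPM in replicates 1 to 5 and 66.7, 69.1, 64.2, 72.5 and 80.9 CPM in replicates 6 to 10. Replicate 10 alone reached into the range of the other run. Its log2 fold change was -0.08 (SE 0.113, edgeR adjusted p = 0.583) with TMM and -0.37 (SE 0.110, adjusted p = 0.0203) with totals.

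Nfu_g_1_011501, the most even member by its CPM, was among the 70. On the TMM scale it had 178 to 252 CPM in replicates 1 to 5 and 253 to 305 CPM in replicates 6 to 10, which did not overlap. The log2 fold change was 0.32 (SE 0.116, edgeR adjusted p = 0.0441) with TMM and 0.04 (SE 0.0979, adjusted p = 0.768) with totals. The share of counts in the most abundant genes moved with the runs, as given above, and its part in these differences was not tested. The 70 members called had a median length of 3.08 kb and a median level of 51.4 CPM, and the other 130 had 3.25 kb and 35.8 CPM. Of the 27 members called lower in replicates 1 to 5 than in exercised 9-week fish, 22 were also among the 70. The fits share the libraries of replicates 1 to 5, and both used TMM. The same overlap over all genes was not counted, so nothing is read from it.

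**Figure D4:**
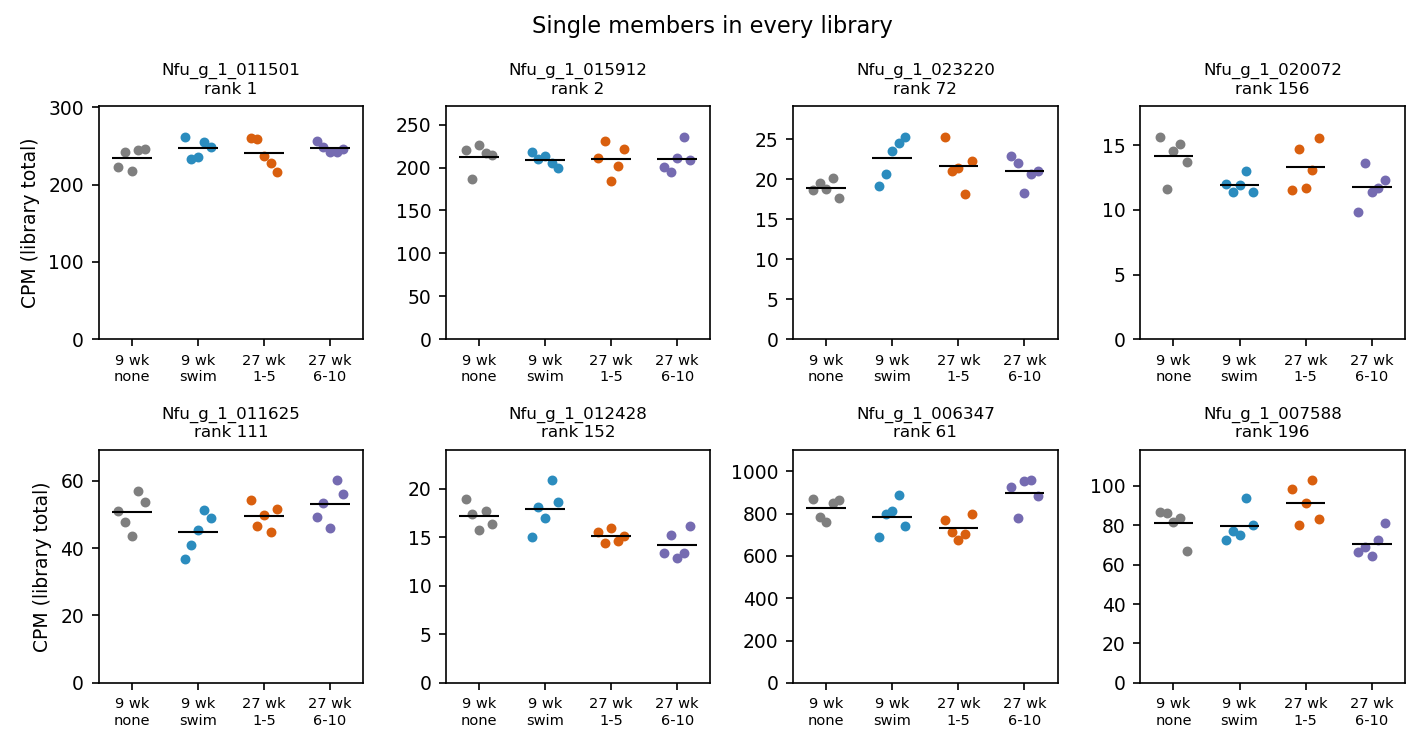
CPM by library total of 8 members in every library (points; lines are means of 5), by set, with the rank in SD above each panel and axes from 0. The members of rank 1 and rank 2 are level over the sets, and Nfu_g_1_006347 and Nfu_g_1_007588 move in opposite directions between the 27-week runs.

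To read the spread in fish that had not chosen the genes, the rule was applied 4 times to 15 libraries, leaving out 1 set each time, and the 200 genes chosen were then read in the 5 left-out fish. Between those fish they stayed even. Their median SD was 0.149 in exercised and 0.128 in unexercised fish of 9 weeks, 0.151 in replicates 1 to 5 and 0.139 in replicates 6 to 10 of 27 weeks. All genes of the level window in the same 15 libraries had 0.212, 0.202, 0.239 and 0.226, and those also eligible there had 0.263, 0.227, 0.260 and 0.260. From 84.5% to 88.0% of the chosen genes lay below the median of the window, and 86.5% to 96.0% below that of the eligible genes.

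The level of the left-out set was another matter. The mean of the left-out fish differed from that of the other 15 libraries by a median of 0.0915 in exercised and 0.106 in unexercised 9-week fish, against 0.172 and 0.205 in all eligible genes. For replicates 1 to 5 of 27 weeks the shift was 0.444 against 0.429 in all eligible genes, and for replicates 6 to 10 it was 0.270 against 0.282. Over all genes of the window these 4 shifts were 0.234, 0.244, 0.421 and 0.291. Genes chosen without a 27-week run thus shifted in that run by about as much as eligible genes. In replicates 1 to 5, 152 of the 200 chosen genes were higher, and in replicates 6 to 10, 177 were lower. Genes at large leaned the same way on this scale. Over all genes of the window, a library's median deviation from the genes' own means averaged 0.085 in replicates 1 to 5. In replicates 6 to 10 it averaged -0.18. A lean was not particular to the 27-week runs. Of the genes chosen without a 9-week set, 156 of 200 were higher in left-out unexercised and 130 in left-out exercised fish. How many eligible genes went in each direction was not counted for any set. The left-out range overlapped with all other sets in 31.0% of the chosen genes for replicates 1 to 5 and 37.5% for replicates 6 to 10, against 53.6% and 69.2% of eligible genes. A tight range overlaps less easily by construction. With the rule applied to TMM-scaled values, the chosen genes shifted less than eligible genes in both runs. The shifts were 0.319 against 0.412 in replicates 1 to 5 and 0.133 against 0.192 in replicates 6 to 10. The lean remained on that scale, with 151 of the 200 chosen genes higher in replicates 1 to 5 and 155 lower in replicates 6 to 10. Left-out exercised fish of 9 weeks had 149 of 200 higher and unexercised ones 101. For replicates 1 to 5 and 6 to 10, left-out ranges overlapped with all other sets in 32.5% and 66.5% of chosen genes. Among eligible genes it was 50.4% and 78.9%.

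**Figure D5:**
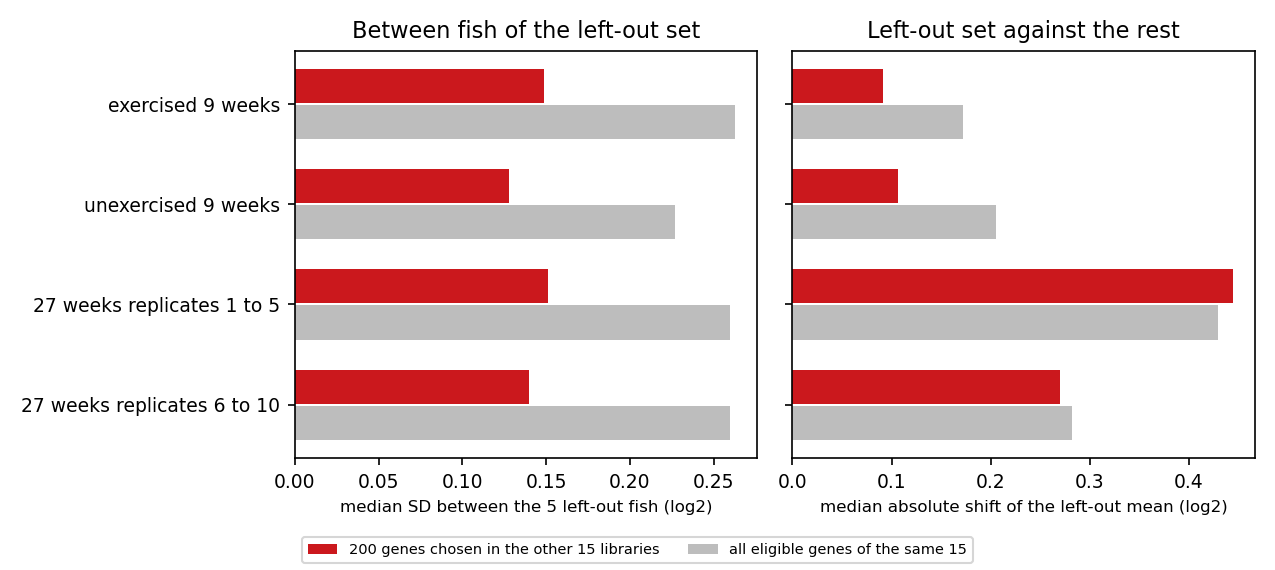
For each left-out set, the median SD between its 5 fish (left) and the median absolute shift of its mean from the other 15 libraries (right), both on the log2(CPM + 0.5) scale, for the 200 genes chosen in those 15 libraries (red) and for all genes eligible there (grey). The red bars are shorter in every set on the left, and about as long as the grey ones for the 27-week runs on the right.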

How the data were processed

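The deposited counts are raw whole numbers per gene. STAR 2.4.1d, featureCounts 1.4.6-p4 and bcl2fastq 1.8.4 are named in the submitters' processing notes. Genome build, annotation, strand and multi-mapping settings were not given in the sources used here, so overlapping genes and close copies may share reads. In the deposited RPKM values, count divided by RPKM was constant in 10228 well-counted genes only when the totals were recycled down each column (median SD of the natural log ratio 3.77e-05, against 0.227 with own totals), so the RPKM served for gene lengths and 1 alternative alone.

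The members and lists were chosen with earlier results of these data known. Groups follow the age and perturbation labels and the sets follow the title numbers. Replicate numbers follow sample order. Over 40 pairs of libraries within sets, chi-square per degree of freedom was at least 30.6, so no library was merged with another.

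CPM used library totals and a pseudocount of 0.5. Counting variance was the mean of 1 over the count, on the log2 scale. Contrasts were tested with edgeR 4.0.16 (R 4.3.3): TMM, filterByExpr, glmQLFit (robust), glmQLFTest and Benjamini-Hochberg adjustment over all genes tested, with only the compared libraries in each fit; all 200 members passed the count filter. The SE is the absolute log2 fold change over the square root of F. Alternatives were DESeq2 1.42.0, limma-voom (limma 3.58.1), other scalings, filters, spread measures and libraries left out. Scaling to the median member, totals in single-run fits TMM in the left-out sets and the comparison of those with all genes of the level window were added after the data were seen. Named without gene names were the 2 members of smallest SD, the 2 genes on each side of the limit and, per contrast, the member with the largest positive and the one with the largest negative edgeR log2 fold change. Gene lists and marker genes that had been set need names and were not used. A gene at 10 CPM has at least about 206 reads in a library.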

Additional observations from a re-analysis of the deposited data

Results flagged for a closer look

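Replicates 6 to 10 and replicates 1 to 5 of 27 weeks, under 1 label, differed from each other in 70 members by a test of the difference itself (edgeR with TMM), the same as a difference between their changes from any common 9-week group. All 70 were higher in replicates 6 to 10, in a fit that called 41.6% of all genes tested, 20.3% of all genes tested in that direction. With library totals in place of TMM 5 members were called, 1 of them in common with the 70, beside 41.0% of all genes. The rule had used these libraries and held the members even with totals. The counts of members called and their direction are therefore a description.

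Single fish stood apart from the rest of their group in 3 of 45 checks on the named genes and 3 library measures. Chance gives about 2.25 for independent checks of unselected genes. The named genes were picked by spread or fold change in these same libraries, so the 3 flags are a description. On the log2(CPM + 0.5) scale, replicate 2 of the unexercised fish had 7.54 for Nfu_g_1_015912, below the next value of 7.75. Replicate 5 of the same group had 6.08 for Nfu_g_1_007588, below the next value of 6.36. Replicate 1 of the 27-week fish, the library of the fewest reads, had 6.996 for Nfu_g_1_001937, above the next value of 6.68.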

How the results depend on the processing

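The list of 200 depended on scaling most. It shared 24.5% of its genes with the list chosen on TMM-scaled values, 22.0% with DESeq2 size factors, 16.0% with upper-quartile scaling, 23.5% on the deposited RPKM as given (where the level window also changes) and 51.5% by median absolute deviation. It shared 59.0% without the unexercised set, 27.0% without replicates 1 to 5 and 31.5% without replicates 6 to 10 of 27 weeks. Leaving out single fish kept 80.5% to 97.0% of the genes. The other alternatives of the rule kept 70.5% to 98.5%. The median SD of the members (0.165) was 0.162 to 0.180 over 5 alternatives.

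Members called for exercise were 2 with DESeq2 (2.19% of all genes) and 0 in every other fit. This held with each fish left out, where 0% to 0.0376% of all genes were called. For age there were 2 with DESeq2 (25.8% of all genes) and 2 against unexercised fish (25.5%). With each fish left out there were 0 to 1 (13.0% to 28.5%). Single runs gave 27 and 2 (50.3% and 16.1%), and 3 and 1 with totals (46.7% and 18.8%). Between the runs 70 (41.6% of all genes) became 5 with totals (41.0%) and 13 when libraries were scaled to the median member (41.7%). With each fish left out there were 36 to 61, beside 36.5% to 41.6% of all genes. The 5 other fits gave 55 to 74, beside 32.2% to 42.8% of all genes. With the members as the scale, 27.8% of all calls between the runs were higher. None of the 6 members named for a contrast changed the sign of its log2 fold change there under any alternative run.

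No paired analysis was possible because replicate numbers follow sample order and pair no fish. Depth limits little here, since counting made up a median of 6.62% of the members' variance; intervals between fish rest on 5 or 10 libraries.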

Other observations

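The level window left out the most abundant genes. Of the genes of 1000 CPM or more, 69 (48.6%) had an SD at or below the members' limit, and 34 of these also had overlapping ranges in every pair of sets.

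Loss of overlap came mainly with replicates 1 to 5 of 27 weeks. Of the 9583 genes in the level window, the ranges of exercised and unexercised 9-week fish were apart for 2.68%. Replicates 1 to 5 were apart from exercised fish of 9 weeks for 40.1%, from unexercised ones for 41.8% and from replicates 6 to 10 for 37.5%. Replicates 6 to 10 were apart from the 9-week sets for 18.9% and 25.3%.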
